A study of Mus musculus with 6 samples.

Results

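The 46 genes described here were read in 5-azacytidine-induced mouse cardiosphere-derived cells and had no read in untreated cells of the same line. They were chosen from the count table by a rule on the reads themselves. A gene was taken when it was annotated as protein coding, lay on chromosomes 1 to 19, had 0 reads in each of the 3 control libraries and reached 5 reads or more in each of the 3 induced libraries. The rule left out 5 genes by name (Ckmt1, Myl7, Sohlh2, Mov10l1 and Tex19.1). Of 20820 other autosomal coding genes, in a table of 54532 genes of all kinds, 46 met it. Since the rule used the contrast between induced and control cells, the size and direction of that contrast in these 46 genes are a description and were not tested.

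The cells were immortalized cardiosphere-derived cells (iCDCs) of C57BL/6 mice from the heart ventricle, at passage 30. According to the methods of the study, the line was grown out of epicardium, the outer layer of the heart, and was kept dividing by a lentiviral telomerase gene (hTERT), which both groups carry. The 3 control libraries came from iCDCs without the drug. The 3 induced libraries came from iCDCs given 10 µM 5-azacytidine for 3 days and then kept for 4 weeks in medium with 2% serum, as the labels state. The methods name another medium and another duration for that culture, and the labels give no matched time in low serum for the controls, so drug, serum and time in culture cannot be told apart. The labels speak of separate samples but not of separate cultures, so spread between libraries may be technical.

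5-Azacytidine is a cytidine analogue that is built into nucleic acids and traps DNA methyltransferases, so that newly made DNA carries less methylation at CpG, a cytosine followed by a guanine. Methylated promoters of certain germline, imprinted and tissue-specific genes are silent in most body cells, and such genes are known to be read after the drug. Endogenous retroviruses can also be transcribed after the drug and can set off an interferon response. In the heart field the drug is used to start cardiac differentiation of progenitor cells.

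Total counts lay between 19041133 and 19823369 reads per library, so a count of 0 allowed a level of up to 0.151 to 0.158 CPM (read counts scaled to a fixed library total), taking 3 counts as the limit and covering counting error only. All 8 epicardial and cardiosphere markers were read in every library, with a summed level of 1089 to 1115 CPM in control and 1738 to 1883 CPM in induced cells. Upk3b, a mesothelial membrane protein with 4977 to 5061 control and 16684 to 18878 induced reads, made up that difference, as the other 7 summed to 835 to 861 CPM in control and 852 to 881 CPM in induced cells. Of the 8 markers 5 were called higher and 3 lower, the latter being Tbx18, Pdgfra and Ly6a with log2 fold changes of -0.33, -0.73 and -0.57. The targets of the drug were measured at the RNA level through 21 genes of the DNA methylation machinery, of which 4 were higher, 10 lower and 7 without a call in induced cells by edgeR's quasi-likelihood test (Benjamini-Hochberg adjusted p under 0.05, median log2 fold change of the list -0.23, against -0.01 for all genes tested, of which 32.6% were higher and 32.2% lower). Uhrf1, which brings the maintenance methyltransferase to new DNA, fell by 1.92 in log2 units (adjusted p 2.42e-15 in edgeR), and Dnmt1, that methyltransferase, fell by 1.26 (edgeR adjusted p 6.34e-13). The methyltransferase Dnmt3a was higher by 0.44 (edgeR adjusted p 5.56e-07), and Dnmt3b had no call (log2 fold change -0.28, edgeR adjusted p 0.354). The falls of Uhrf1 and Dnmt1 were not particular to the methylation machinery. The replication and mitosis genes Cdt1, Plk4, Ncapd2 and Kif22 had log2 fold changes of -1.27, -1.36, -2.04 and -2.05. The study reports inhibition of DNA replication after the drug, and its part in the falls of Uhrf1 and Dnmt1 was not tested.

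The 46 genes gave 935, 847 and 982 reads in induced libraries 1, 2 and 3, and 0 in the controls. After scaling by TMM, which sets libraries to a common effective size, these sums were 49.6, 44.5 and 51.4 CPM. The reads of a single gene over the 3 induced libraries ran from 15 to 191, with a median of 47.5. Mean induced levels ran from 0.263 to 3.35 CPM with a median of 0.834 CPM, and 28 of the 46 genes stayed under 1 CPM. Per length, the levels were 0.0427 to 2.41 FPKM (fragments scaled to transcript length and library size), with a median of 0.271 FPKM. All 46 were therefore genes of low level: among 15397 autosomal coding genes with an induced read, 23.9% lay below the median and 32.0% below the highest of the 46 in CPM. Against 3 reads summed over the control group, the induced level was at least 5.21-fold to at least 66.4-fold higher, with a median bound of 16.5-fold. In bulk RNA, a low level in every cell and a high level in few cells cannot be told apart.

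Of the 46 genes, 25 had enough reads to enter the edgeR fit and all 25 were called higher, while the other 21 were not tested. The background in the same fit was 32.6% of 14246 genes called higher, 32.2% called lower and 64.8% called in either direction. Every induced library lay above every control library in 34.1% of the genes tested. Nothing is read from the count of 25, because a gene with 0 control reads entered the fit through its induced libraries alone.

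**Figure D1:**
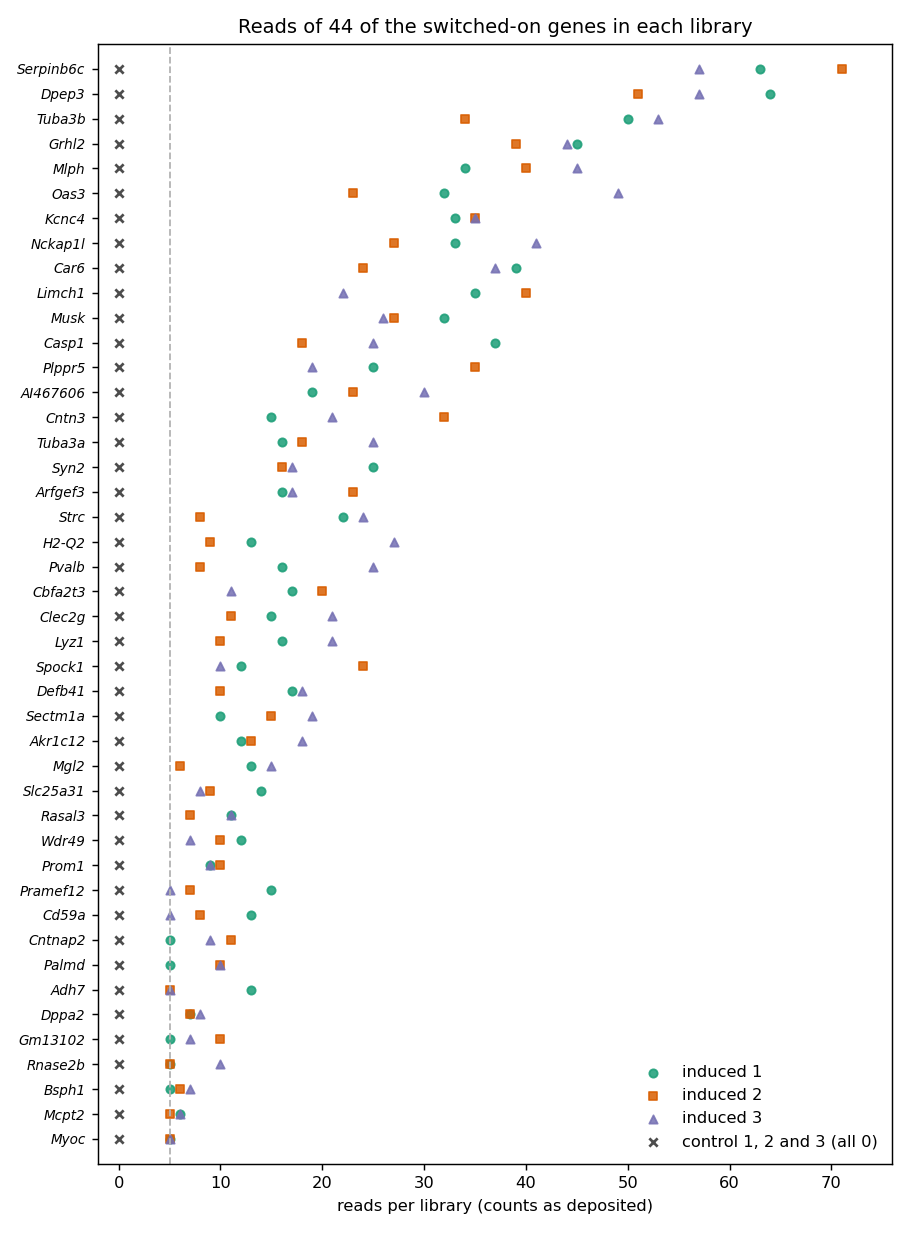
Reads per library as deposited (x axis) for 44 of the 46 genes (y axis), in order of their summed induced reads. Circles, squares and triangles are induced libraries 1, 2 and 3, crosses are the 3 control libraries, all at 0, and the dashed line marks the 5 reads that the rule asked of every induced library. The highest gene, Serpinb6c, lies at 57 to 71 reads and the lowest, Myoc, at 5 in each induced library.

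The stretches before the transcription start are shown for the 6 genes with the most reads whose window held at most 30 annotated exon bases. They are given because 5-azacytidine is known to lower CpG methylation in newly made DNA, and the density of CpG differed widely between these genes. Each run is the 250 bases before the start given by RefSeq on GRCm38.p6, read in the direction of the gene, with every CpG in capitals.
Serpinb6c, chr13:33905192-33905441, minus strand: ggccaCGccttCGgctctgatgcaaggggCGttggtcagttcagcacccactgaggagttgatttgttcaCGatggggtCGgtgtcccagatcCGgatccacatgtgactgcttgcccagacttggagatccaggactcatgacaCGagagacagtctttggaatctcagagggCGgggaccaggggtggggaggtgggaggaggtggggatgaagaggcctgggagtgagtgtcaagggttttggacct
Dpep3, chr8:105979420-105979669, minus strand: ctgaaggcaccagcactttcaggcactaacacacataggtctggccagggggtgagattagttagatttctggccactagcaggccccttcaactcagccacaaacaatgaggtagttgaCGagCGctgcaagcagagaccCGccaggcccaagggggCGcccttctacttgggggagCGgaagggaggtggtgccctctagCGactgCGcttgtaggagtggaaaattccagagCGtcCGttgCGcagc
Mlph, chr1:90914850-90915099, plus strand: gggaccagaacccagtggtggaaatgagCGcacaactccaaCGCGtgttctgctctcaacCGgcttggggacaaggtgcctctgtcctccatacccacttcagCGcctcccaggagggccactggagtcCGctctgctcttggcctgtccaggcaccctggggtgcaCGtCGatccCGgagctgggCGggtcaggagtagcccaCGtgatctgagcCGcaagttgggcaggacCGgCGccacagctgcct
Oas3, chr5:120777660-120777909, minus strand: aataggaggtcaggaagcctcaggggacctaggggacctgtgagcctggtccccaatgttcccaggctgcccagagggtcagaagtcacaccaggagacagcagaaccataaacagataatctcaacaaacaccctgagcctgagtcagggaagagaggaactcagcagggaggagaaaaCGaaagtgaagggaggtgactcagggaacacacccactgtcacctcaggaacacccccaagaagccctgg
Musk, chr4:58285712-58285961, plus strand: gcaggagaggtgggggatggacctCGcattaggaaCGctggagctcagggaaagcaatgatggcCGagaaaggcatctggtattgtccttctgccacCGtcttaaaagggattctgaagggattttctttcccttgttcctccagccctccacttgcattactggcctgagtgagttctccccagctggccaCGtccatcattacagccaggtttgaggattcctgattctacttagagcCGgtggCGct
Casp1, chr9:5298267-5298516, plus strand: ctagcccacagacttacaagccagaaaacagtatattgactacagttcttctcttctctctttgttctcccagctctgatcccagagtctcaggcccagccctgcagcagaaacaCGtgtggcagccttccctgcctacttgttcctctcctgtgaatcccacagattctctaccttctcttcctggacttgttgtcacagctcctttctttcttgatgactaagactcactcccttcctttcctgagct
They carried 8, 10, 14, 1, 7 and 1 CpG in that order. The RefSeq start of Serpinb6c lay 517 bases from the start in the deposited table, and those of the other 5 genes within 15 bases of it. Oas3 also held GAAA, any 2 bases and GAAA again, part of the element that interferon-activated factors bind, 75 bases before the start. The match is a description of the letters and not of binding, and no methylation was measured in these cells.

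The genes are described below by what they are known for, in groups made with their values already known. There were 15 genes of blood and immunity, 8 of the germline and early embryo, 8 of nerve and the neuromuscular junction, 4 of epithelium and pigment cells, and 11 of other kinds. The germline genes Sohlh2, Mov10l1 and Tex19.1 and the myosin light chain gene Myl7 were left out by name, so the group sizes depend on the rule. The 20 genes with the most reads held 1926 of the 2764 member reads (69.7%). The reads were thus spread over all groups, with 27.3% in genes of blood and immunity, 17.7% in the germline group, 18.6% in the nerve group, 13.6% in the epithelial group and 22.9% in the rest. By keywords of the deposited gene descriptions instead, 9 were enzymes or their inhibitors, 4 immune, 3 adhesion and matrix, 3 receptors and signalling, 2 channels and transporters, 2 cytoskeletal, 1 germline and 1 a transcription factor, and 21 matched none.

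In the germline and early embryo group, Dpep3, a membrane-bound dipeptidase of the testis (ENSMUSG00000031898, chromosome 8, 105973513 to 105979429, minus strand), had 64, 51 and 57 reads in induced libraries 1, 2 and 3. Its mean level was 3.02 ± 0.360 CPM (SD, n = 3), at least 59.8-fold above the controls, and its 1.78 FPKM was the second value among all 46 genes. Tuba3b and Tuba3a encode alpha tubulins of the testis. Tuba3b (chromosome 6, 145615757 to 145621479, plus strand) had 50, 34 and 53 reads, or 2.41 ± 0.539 CPM, at least 47.6-fold above the controls. Tuba3a (chromosome 6, 125278274 to 125286042, minus strand) had 16, 18 and 25 reads, or 1.03 ± 0.242 CPM. Both are on chromosome 6 but far apart, and 11.8% and 12.3% of their 100-base stretches occur in another transcript, so a small part of their reads could have been split or lost. Per length, Tuba3b had 1.35 FPKM and Tuba3a 0.685 FPKM.

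Slc25a31, the ADP/ATP carrier of male germ cells, had 14, 9 and 8 reads (0.545 ± 0.174 CPM). Pramef12, of the PRAME family read in germ cells, had 15, 7 and 5 reads. Its relative Gm13102 had 5, 10 and 7 reads. As 91.4% of the 100-base stretches of Gm13102 also occur in Pramel4 or Pramel5, and Pramel5 alone rose to 104, 97 and 124 reads from 0, 0 and 1, the reads of Gm13102 are uncertain. Dppa2, a chromatin protein of pluripotent and early embryonic cells, had 7, 7 and 8 reads, the evenest counts of this group, and 23.9% of its stretches occur in pseudogenes. Bsph1, a sperm-binding protein, had 5, 6 and 7.

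For comparison, 29 genes known to be kept silent by promoter methylation in body cells were looked up. The list holds 4 of the 46 genes, Dpep3, Tuba3a, Tuba3b and Slc25a31. Of the 29, 10 had reads enough for the edgeR fit, 5 were called higher and 2 lower, where 32.6% and 32.2% of all genes tested were called. The 5 higher include Dpep3, Tuba3a and Tuba3b, which the rule chose for their 0 control reads, so that 2 of the other 7 tested genes were higher. These 2 were Rhox5, an X-linked homeobox gene with 0, 1 and 0 control and 125, 73 and 98 induced reads, and Piwil2. Rhox5, too, entered the fit through its induced libraries alone, so nothing is read from its call. Piwil2 had 12, 8 and 14 control and 31, 34 and 21 induced reads. Ddx4 and Brdt were called lower, Ddx4 from 29, 48 and 29 to 6, 9 and 12 reads (log2 fold change -1.90, edgeR adjusted p 0.000162). Dnmt3l, Zcwpw1 and Stag3 had no call (log2 fold change -0.26, 0.19 and 0.75). Part of the list was thus not silent in these control cells. Brdt had 52, 68 and 64 control reads, Dnmt3l 64, 53 and 60, and Zcwpw1 33, 33 and 27. Other genes of the list stayed at the floor: Sycp3, of the meiotic chromosome axis, had 2, 3 and 5 induced reads, Dazl 3, 0 and 1, and 5 genes had no read in any library. In all, 19 of the 29, Slc25a31 among them, had too few reads to be tested.

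In the blood and immunity group, Oas3, an oligoadenylate synthetase that senses double-stranded RNA (chromosome 5, 120753098 to 120777661, minus strand), had 32, 23 and 49 reads. Its mean was 1.82 ± 0.687 CPM (SD, n = 3), at least 36.1-fold above the controls. Nckap1l, the blood-cell subunit of the WAVE actin regulator, had 33, 27 and 41 reads (1.77 ± 0.364 CPM). In both genes induced library 3 was the highest and library 2 the lowest. Casp1, the protease of inflammasomes, had 37, 18 and 25 reads (1.41 ± 0.516 CPM), and here library 1 was the highest.

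H2-Q2 is a class I gene of the major histocompatibility complex. As 5.1% of its 100-base stretches also occur in H2-Q1, its reads are less certain. They numbered 13, 9 and 27, again highest in library 3. The corepressor Cbfa2t3, of the ETO family, went the other way with 17, 20 and 11. Clec2g, a lectin-like membrane protein, had 15, 11 and 21 reads, and Lyz1, a lysozyme of Paneth cells, 16, 10 and 21. Defb41, a beta-defensin, had 17, 10 and 18 reads on a transcript of 610 bases, which gave 1.29 FPKM, the highest per-length level of the group. Sectm1a, a secreted and transmembrane protein, had 10, 15 and 19 reads. Mgl2, a galactose-binding lectin of macrophages, had 13, 6 and 15. The Ras inhibitor Rasal3 had 11, 7 and 11, the complement inhibitor Cd59a 13, 8 and 5, the eosinophil-type ribonuclease Rnase2b 5, 5 and 10, and the mast cell protease Mcpt2 6, 5 and 6 reads.

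The 10 leukocyte markers did not move together. Ptprc, Cd52, Itgam, Tyrobp and Cd3e had 0 reads in all 6 libraries, and Laptm5 had 2, 1 and 4 control reads and 0 in induced cells. The 3 markers tested were all called higher, where 32.6% of all genes tested were. The summed level of the list was 4.96 to 6.61 CPM in control and 43.9 to 50.7 CPM in induced cells, carried by these 3 genes. Cd68, a lysosomal protein of macrophages and other cells, had 34, 39 and 43 control reads and 554, 499 and 606 induced reads. Fcer1g, a signalling chain of Fc receptors, went from 2, 0 and 0 to 66, 62 and 59, and Lyz2 from 60, 78 and 85 to 253, 275 and 304.

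In the nerve and neuromuscular group, the voltage-gated potassium channel Kcnc4 (chromosome 3, 107438303 to 107459552, minus strand) had 33, 35 and 35 reads, or 1.81 ± 0.0484 CPM (SD, n = 3), at least 35.8-fold above the controls. Musk, the receptor kinase that gathers acetylcholine receptors at the muscle endplate, had 32, 27 and 26 reads (1.49 ± 0.181 CPM). Both were even across libraries. Plppr5, a phosphatase-related membrane protein of neurites, had 25, 35 and 19 reads, and Cntn3, a neuronal adhesion protein of the contactin family, 15, 32 and 21. The synaptic vesicle protein Syn2 had 25, 16 and 17, the calcium buffer Pvalb 16, 8 and 25, the brain proteoglycan Spock1 12, 24 and 10, and Cntnap2, a neurexin-like protein of axons, 5, 11 and 9 reads.

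Neuronal markers did not rise with these genes. Their summed level was 90.9 to 95.6 CPM in control and 27.7 to 32.0 CPM in induced cells. Tubb3 carried it almost wholly, with 1847, 1734 and 1820 control and 565, 523 and 607 induced reads. All 3 markers tested were lower, where 32.2% of all genes tested were. Tubb3 fell by 1.61, Gap43 by 2.88 and Syt1 by 5.13 in log2 units (adjusted p in edgeR 6.36e-14, 8.64e-05 and 8.32e-07). Nefl, Stmn2 and Rbfox3 had at most 2 reads in any library, and Snap25 had 0 reads in all 6 libraries.

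In the group of epithelium and pigment cells, the epithelial transcription factor Grhl2 (chromosome 15, 37233036 to 37363569, plus strand) had 45, 39 and 44 reads, or 2.25 ± 0.177 CPM, at least 44.5-fold above the controls. Mlph, which ties pigment granules to myosin, had 34, 40 and 45 reads (2.09 ± 0.276 CPM). Car6, the secreted carbonic anhydrase of saliva, had 39, 24 and 37 reads (1.76 ± 0.434 CPM). Prom1, a membrane protein of apical protrusions, had 9, 10 and 9. As a group these 4 were the most even, with a median coefficient of variation of 10.5%, although Car6 varied by 24.7%. The median lies below the counting error of these genes (15.3% to 32.7%), and the group had the highest median level (1.92 CPM). The evenness is therefore not read as a trait of the group. Among 5 keratinocyte markers the summed level was 2.50 to 3.29 CPM in control and 10.7 to 17.1 CPM in induced cells. Krt14 carried it, with 9, 10 and 10 control reads and 225, 177 and 291 induced reads, while its partner Krt5 had 1 read in all.

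Among the other genes, Serpinb6c, a member of the intracellular serpin protease inhibitors (ENSMUSG00000052180, chromosome 13, 33879816 to 33905708, minus strand), had the most reads of all 46, with 63, 71 and 57. Its mean was 3.35 ± 0.373 CPM (SD, n = 3), at least 66.4-fold above the controls, and its 2.41 FPKM was the highest per-length level. Limch1, an actin and myosin regulator, had 35, 40 and 22 reads (1.70 ± 0.493 CPM). AI467606 had 19, 23 and 30 reads, Arfgef3, of the Arf exchange factor family, 16, 23 and 17, and Strc, stereocilin of hair cell bundles, 22, 8 and 24. Akr1c12, an aldo-keto reductase, had 12, 13 and 18, and 11.5% of its stretches also occur in Akr1c13.

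The remaining genes described from this group were near the limit of the rule. Wdr49, a WD-repeat protein, had 12, 10 and 7 reads. Palmd, a membrane-associated paralemmin relative, had 5, 10 and 10, and Adh7, an alcohol dehydrogenase that acts on retinol, 13, 5 and 5. Myoc, myocilin, had 5 reads in each of the 3 induced libraries and was, with Mcpt2 and Bsph1, just inside the rule. Just outside it were Gtsf1 with 10, 4 and 15 reads, Htr2b with 4, 7 and 17 and Slc47a2 with 4, 8 and 8, each 1 read short in 1 induced library. A single control read kept out 31 genes that met the rest of the rule, led by Pramel5 (104, 97 and 124 induced reads), H2-Q6 (90, 102 and 124) and Wfdc2 (62, 47 and 93).

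The rule's mirror image gave fewer genes. With 0 reads in every induced library and at least 5 in every control library, 8 autosomal coding genes were found, among them Krt13 with 47, 52 and 25 control reads and Slc4a8 with 31, 19 and 25. The starting numbers of unread genes were close, with 5941 at 0 in all control and 5423 at 0 in all induced libraries. A minimum of 1 read in every library of the other group gave 199 genes read in induced cells only and 52 in control cells only. At 10 reads the numbers were 26 and 5, at 20 reads 11 and 1, and at 30 reads 6 and 0. Of the 5941, 4876 had no read in any library and 829 had 1 to 4 reads in all induced libraries together.

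**Figure D2:**
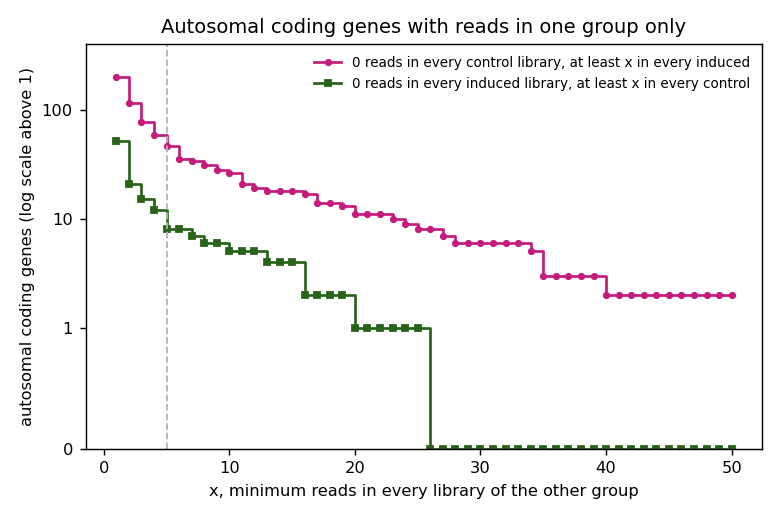
Number of autosomal coding genes (y axis, log scale above 1) with 0 reads in every library of one group and at least x reads in every library of the other (x axis, from 1 to 50). Circles are genes read in induced cells only and squares genes read in control cells only, and the dashed line marks the minimum of 5, where they number 46 and 8.

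The coefficient of variation of the 46 genes over the 3 induced libraries had a median of 29.0%, where counting error alone gives a median of 25.1% at these depths. Among 1842 other autosomal coding genes in the same range of induced levels, not matched for depth, the median was 22.1%. The rule asked for 5 reads in every induced library and so used these counts, and the values are a description.

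The order of the libraries was not the same in every gene. Library 3 was the highest and library 2 the lowest in 13 of the 46 genes (28.3%), and in 17% of the other 1842 genes. Of those 13, 9 were of blood and immunity (among them Oas3, Nckap1l, H2-Q2, Clec2g, Lyz1, Defb41, Mgl2 and Rnase2b), and the other 4 were Tuba3b, Strc, Pvalb and Dppa2. In genes of blood and immunity together, the 3 libraries held 255, 184 and 315 reads. The nerve group held 163, 188 and 162 reads in the same libraries, and the germline group 176, 142 and 170. No test of these orders was made, since the groups were formed with the values known.

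Summed over a list of its genes, the interferon response was highest in induced library 3 and lowest in library 2. Of 35 interferon response genes, 33 were called higher and 1 lower by edgeR's quasi-likelihood test, with a median log2 fold change of 2.88, while 32.6% of all genes tested were called higher and 32.2% lower. Oas3 is the single gene that belongs to the list and to the 46, and nothing is read from its call among the 33. Some other genes of the list, such as Ifi44 with 0, 1 and 2 control reads and Mx1 with 1, 1 and 3, also entered the fit through their induced libraries. Others were well read in controls, such as Stat2 with 575, 567 and 667 control reads. The list summed to 897 to 932 CPM in control libraries and to 1889, 1674 and 2130 CPM in induced libraries 1, 2 and 3. In 19 of the 35 genes library 3 was the highest and library 2 the lowest, and in none was library 3 the lowest. The part of the interferon response in the levels of the 46 genes, or in their order across libraries, was not tested.

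**Figure D3:**
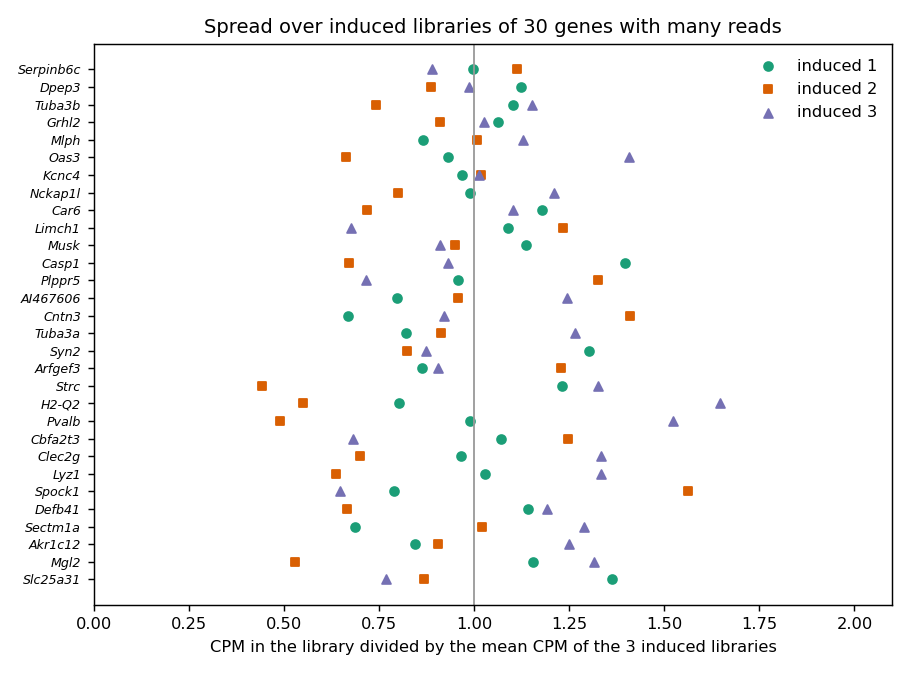
Level in each induced library divided by the mean of the 3 induced libraries (x axis, ratio of TMM-scaled CPM) for 30 of the genes with the most reads (y axis). Circles, squares and triangles are induced libraries 1, 2 and 3 and the vertical line marks the mean. H2-Q2, Pvalb and Oas3 are spread widely with library 3 to the right, whereas Kcnc4 and Grhl2 lie close to the line.

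No 2 of the 46 genes lay within 100 kb of each other. Ckmt1 and Tex19.1, left out by name, did lie within 100 kb of Strc and Sectm1a. How many such pairs would be met among genes taken at random was not computed. The 46 genes were found on 16 of the 19 autosomes. Chromosomes 3 and 6 held 6 each (0.598% and 0.538% of the coding genes there), chromosome 1 held 5, and 12, 18 and 19 held none. Median transcript length was 2710 bases, against 3497 for autosomal coding genes, and the median span on the chromosome was 20402 against 17468 bases. Exons of 12 of the 46 genes overlapped an exon of another gene, by 13% of the exon bases at most, in Rasal3. The setting for strand in read counting is not given in the sources used here, so reads from an overlapping antisense gene could not be told apart in those 12.

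Within 100 kb of the 46 genes lay 207 other coding genes. Of these, 109 were tested, 43 (39.4%) were higher, Ckmt1 and Tex19.1 among them, and 43 (39.4%) lower in induced cells, and their median log2 fold change was 0.02. In the whole fit 32.6% were higher and 32.2% lower. The neighbours were thus called about as often in both directions. A further 54 had too few reads to be tested and 44 had none.

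A few members had paralogues beside them that rose as well, though not every paralogue in the same stretch did. Next to Oas3, Oas2 went from 1, 7 and 4 to 105, 87 and 115 reads (log2 fold change 4.69, edgeR adjusted p 7.50e-10) and Oas1g from 0, 3 and 0 to 37, 22 and 30. Around H2-Q2, the class I genes H2-D1, H2-Q4, H2-Q7, H2-Q6 and H2-Q1 were all called higher, with log2 fold changes of 2.52, 2.17, 5.05, 7.90 and 3.26. Akr1c13, beside Akr1c12, went from 12, 3 and 6 to 151, 129 and 203 reads (log2 fold change 4.56, edgeR adjusted p 2.06e-10). The mast cell protease Mcpt4, beside Mcpt2, went from 0, 0 and 3 to 26, 17 and 20 reads (4.29, edgeR adjusted p 1.55e-05). Rnase1 rose beside Rnase2b, from 11, 6 and 9 to 90, 59 and 80 reads (3.18, edgeR adjusted p 2.71e-08), and Lyz2 beside Lyz1 by 1.96. Other paralogues in these stretches stayed at or near 0 reads. Oas1e had 2, 0 and 1 induced reads, and Oas1f and Oas1h had none. Beside Mcpt2, Mcpt1 and Mcpt9 had no read in any library, and Mcpt8 none in induced cells. Rnase6, beside Rnase2b, had 1, 1 and 0 induced reads, and Akr1c19, beside Akr1c12, had 1, 0 and 0.

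Other members were switched on while a paralogue beside them did not rise. Serpinb6a, 12209 bases from Serpinb6c, had 5456, 5360 and 5367 control and 5343, 5168 and 5591 induced reads (log2 fold change 0.05, edgeR adjusted p 0.331). Casp4, 1562 bases from Casp1, fell by 0.25 and Casp12 by 0.61 (edgeR adjusted p 0.0283 and 1.69e-06). Dpep2, beside Dpep3, had 2, 0 and 3 control and 2, 3 and 1 induced reads and was not tested, while the unrelated Lcat, an enzyme of cholesterol transport in the same stretch, went from 19, 17 and 15 to 196, 173 and 201 reads (log2 fold change 3.53, edgeR adjusted p 6.84e-12). Of neighbours that are not paralogues, Slc6a17, 7990 bases from Kcnc4, fell by 2.01, and Pde1b, 4223 bases from Nckap1l, by 0.94 (edgeR adjusted p 1.64e-09 and 5.38e-07).

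Among the neighbours without a control read, 3 had 10 or more reads in an induced library, a limit set after their values were seen. Gtsf1, a germline gene just outside the rule, lies 23323 bases from Nckap1l. Tex19.1, left out by the rule, had 27, 12 and 27 induced reads and lies 64922 bases from Sectm1a. Ckmt1, also left out by the rule, had 492, 381 and 484 induced reads, lies on the opposite strand to Strc and shares 0.2% of the exon bases of Strc with it. Strc had 22, 8 and 24 reads in the same libraries and, like Ckmt1, was lowest in library 2.

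**Figure D4:**
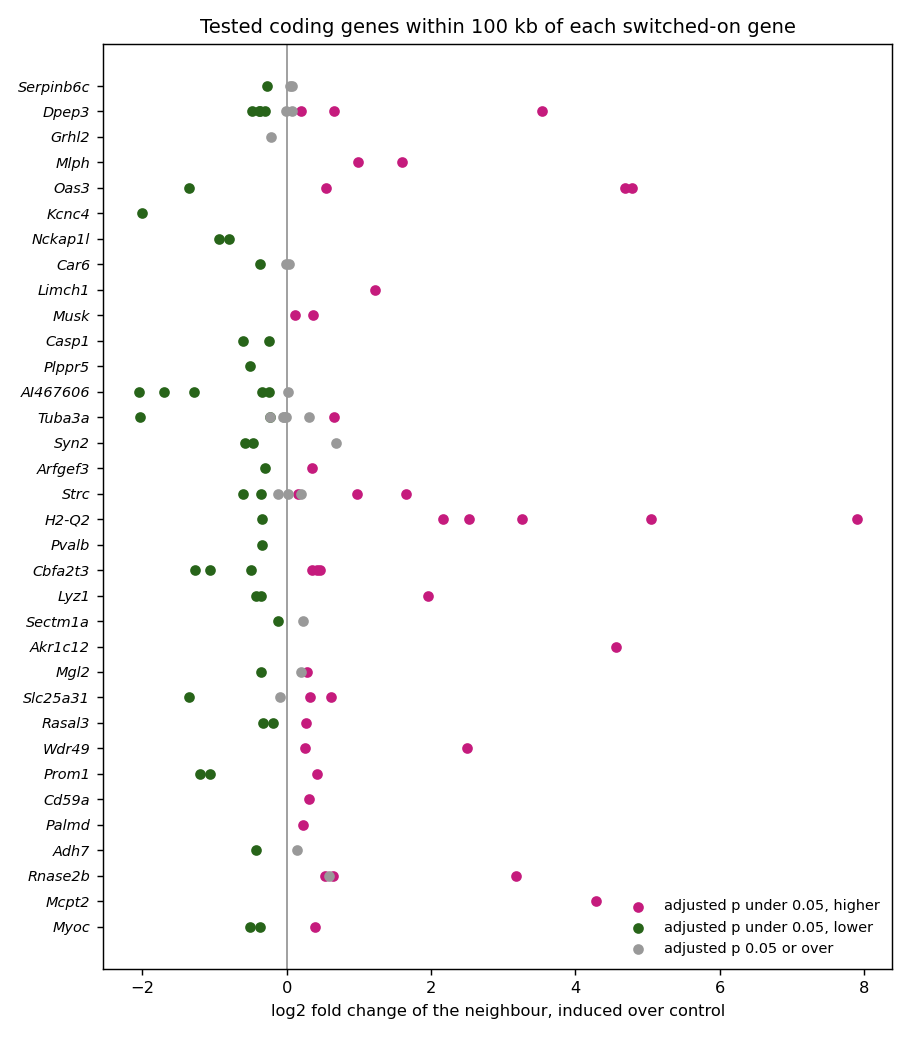
Log2 fold change, induced over control (x axis), of each tested coding gene within 100 kb of one of 34 switched-on genes (y axis). Colours give the edgeR call at a Benjamini-Hochberg adjusted p of 0.05, higher, lower or no call. Neighbours lie on both sides of 0, and the values above 4 belong to the surroundings of Oas3, H2-Q2, Akr1c12 and Mcpt2. Tex19.1 and Ckmt1, left out by the rule, are not drawn.

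Promoter sequence was compared with that of other genes through the RefSeq windows of 300 bases, from 250 before to 50 after the start on GRCm38.p6. A window was found for 36 of the 46 genes and its start lay within 1000 bases of the deposited start for 32, which were used. These 32 held a median of 8.0 CpG (quartiles 3.0 and 14.25), with a ratio of observed to expected CpG of 0.362. Genes without a read in any of the 6 libraries had a median of 3.0 (n = 2524), genes with at least 5 reads in every library 22.0 (n = 8519), and all autosomal coding genes 16.0 (n = 13565). At least 15 CpG were found in 8 of the 32 promoters, in 10.6% of those of unread genes and in 75.3% of those read in every library. At most 5 CpG were found in 40.6%, 72.9% and 6.6%. The switched-on genes thus lay between unread and widely read genes in this measure.

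The 32 promoters were not of one kind. Limch1 with 35 CpG, Spock1 with 29, Arfgef3 with 25, Slc25a31 with 22 and Syn2 with 21 had the density of widely read genes. Defb41 had none, Cd59a 1, Lyz1 2, and Oas3 and Casp1 3 each. None of the 11 windows of blood and immunity genes held 15 or more, and they ran from 0 to 10 with a median of 3.0. The 4 windows of the germline group ran from 12 to 22 with a median of 14.0, and the 7 of the nerve group from 5 to 29, also with a median of 14.0.

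Short motifs were counted on both strands in the same windows. The letters TATAAA occurred in 12.5% of the 32 promoters and in 11.2% of all autosomal coding promoters, CCAAT in 40.6% and 38.5%, GGGCGG in 43.8% and 52.4%, TCCCGC in 21.9% and 29.1% and CACGTG in 15.6% and 8.7%. GAAA followed by any 2 bases and GAAA occurred in 2 of the 32 (6.2%, Oas3 and Cd59a) and in 3.3% of all. No motif was searched beyond these, and GGGCGG and TCCCGC can overlap in a CpG-rich stretch.

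**Figure D5:**
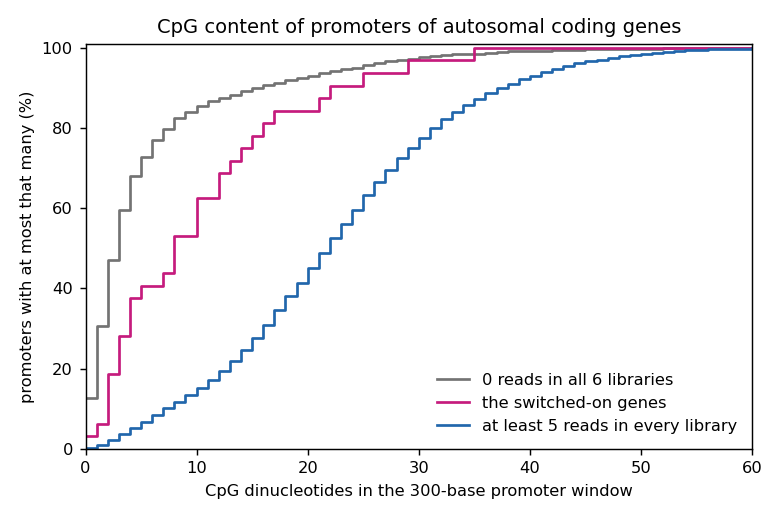
Cumulative share of promoters (y axis, percent) with at most a given number of CpG in the 300-base window (x axis). The lines are the 32 switched-on genes with a usable window, 2524 genes with 0 reads in all 6 libraries and 8519 genes with at least 5 reads in every library. The line of the switched-on genes runs between the other lines, with medians of 8.0, 3.0 and 22.0 CpG.

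The remaining marker lists were looked at for other cell types among the induced cells. Endothelial markers summed to 1.60 to 1.88 CPM in control and 1.21 to 2.30 CPM in induced cells, Schwann cell markers to 1.02 to 1.52 and 1.84 to 2.20 CPM, erythroid markers to at most 0.25 CPM in any library and adipocyte markers to 5.91 to 6.76 and 4.83 to 6.21 CPM. Cardiomyocyte markers went from 13.1 to 16.1 CPM to 59.1 to 62.7 CPM, almost wholly through Tnnt2 with 264, 223 and 291 control and 1102, 1066 and 1142 induced reads, while Myh6 had 1 read in all and Myl2 none in induced cells. None of the 46 genes is a cardiomyocyte marker of that list, but Ryr2 was kept out by 1 control read, with 9, 10 and 10 induced reads. Myl7, a myosin light chain gene, was left out by name. The 46 genes therefore do not show how many cardiac genes were switched on. The part of other cell types in the levels of the 46 genes was not tested.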

How the data were processed

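RNA sequencing covered 3 control and 3 induced libraries. The authors deposited whole-number read counts and FPKM values per gene in one table of 54532 genes. Per the submitters' processing notes, HISAT2 2.0.5, featureCounts 1.5.0-p3 and DESeq2 1.16.1 were used with mm10. The deposited fold changes, p-values and Gene Ontology tables were not used. Coordinates are those of the deposited table, and 98.3% of the 54409 genes found in GENCODE M21 (GRCm38) have the same ones there.

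Counts were fitted with edgeR 4.0.16 in R 4.3.3 (filterByExpr with minimum count 10 and total 15, TMM, two-sided quasi-likelihood test, Benjamini-Hochberg adjustment over 14246 genes at 0.05), checked on simulated counts. The biological coefficient of variation was 5.82%. Levels are TMM-scaled CPM, mean ± SD over 3 libraries. DESeq2 1.42.0, other scalings and filters, a replicate block and leaving out each library were alternatives.

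Full counts are given for the 20 genes with the most reads and for the first 3 of each keyword class. Of the 46 genes, 44 are described singly and 2 are not reported here by name, but are held in all counts. The members and all lists were chosen with earlier results of these data known, and the use of promoters within 1000 bases of the deposited start was chosen after the data were seen. Sharing of sequence was computed with 100-base stretches of GENCODE M21 transcripts. Pairs of libraries within a group differed by more than counting noise (chi-square per degree of freedom 2.56 to 8.91). Reads are not independent molecules, so limits cover counting error only.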

Additional observations from a re-analysis of the deposited data

How the results depend on the processing

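The number of genes that met the rule was 46. Asking for at least 3 reads in each induced library gave 77, asking for 10 gave 26, allowing 1 control read in all gave 77, and the opposite direction gave 8. Leaving out the genes with overlapping exons left 34, and leaving out a library, with the rule applied to the other 5, gave 53 to 68. Of the 46, 25 were called higher. DESeq2 and the edgeR fit without a filter called 46, and a filter of 1 CPM in 3 libraries called 11, the number tested in each case being the number called; leaving out a library gave 25 to 33. In the whole fit, leaving out a library gave 8514 to 9348 calls against 9225, and DESeq2 gave 8471, of which 8087 were shared. The germline list had 7 calls, 11 without a filter, and 6 to 7 without a library. The interferon list had 34 calls (33 to 34 without a library) and the methylation machinery 14 (13 to 16). The median level of the 46 genes, 0.834 CPM, was 0.701 to 0.935 CPM without an induced library. The median of 8.0 CpG was 7.5 with promoters at any distance and 6.5 in the 250 bases before the start alone.

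The replicate numbers do not pair the libraries: same-numbered libraries deviated from their group means with correlations of -0.002, -0.015 and 0.027 across genes. With the replicate number as a block, 9063 genes were called, with 25 of the 46, 34 of the interferon, 7 of the germline and 14 of the methylation machinery list. Counts of 5 to 10 reads in a library limit what can be said about the order of libraries in single genes.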

Other observations

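The same rule on reads, applied outside the autosomal coding genes, was met by 9 coding genes of the X chromosome and by 29 genes of other biotypes, of which 13 were annotated as lincRNA. The 8 autosomal coding genes read in control cells alone were Krt13, a keratin of stratified epithelia with 47, 52 and 25 control reads, Slc4a8, a bicarbonate transporter with 31, 19 and 25, the cadherin Cdh6 with 15, 20 and 20, the steroid dehydrogenase Hsd3b1 with 12, 20 and 26, the protease inhibitor Spink2 with 15, 17 and 17, the toll-like receptor Tlr1 with 15, 9 and 14, Fbxo16 with 7, 7 and 8 and Gm8206 with 6, 6 and 7. Among the genes kept out by 1 control read, chosen here after their values were seen, were the lectin-like Clec2e with 15, 15 and 17 induced reads, the inflammasome adaptor Pycard with 26, 20 and 47 and the cytokine receptor subunit Csf2rb2 with 18, 14 and 6.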
